A study of Mus musculus with 8 samples.

Results

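Cathepsins are the main proteases of the lysosome, and the 10 family members Ctsa, Ctsb, Ctsc, Ctsd, Ctsf, Ctsh, Ctsk, Ctsl, Ctss and Ctsz were followed here in mouse aortic smooth muscle cells in culture. They were taken by gene symbol through the Entrez identifier of each probe set, and all 10 of the 10 listed genes were found among 24704 genes, each on 1 probe set. Smooth muscle cells are the contractile cells of the aortic wall, and these were grown in medium with 15% serum. The cells were infected with an adenovirus for 24 h and were then given cholesterol at 10 µg/ml for 72 h before total RNA was taken for single-colour Affymetrix arrays. In 4 samples the virus was AdN5, given in the labels as overexpression of NFAT5, a transcription factor of the osmotic stress response. In the other 4 samples it was AdPl, given as the control. Whether the samples of a group came from separate cultures is not stated. No uninfected cells and no cells without cholesterol are among these arrays, so both agents are common to both groups.

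Most cathepsins, among them Ctsb, Ctsc, Ctsf, Ctsh, Ctsk, Ctsl, Ctss and Ctsz, are papain-like enzymes that cut with a cysteine, whereas Ctsd is an aspartic protease and Ctsa a serine carboxypeptidase. They are made as inactive precursors, tagged with mannose 6-phosphate, carried to the lysosome and activated by the acid there. In the arterial wall Ctsk, Ctsl and Ctss are known as elastin- and collagen-degrading enzymes that smooth muscle cells and macrophages can also release, and cystatins outside and inside the cell inhibit them.

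The sequences before the starts of 3 members are shown because Ctss and Ctsk had the largest differences of the family, and Ctsd, whose level did not differ beyond its spread, carries the motif that is known to mark many lysosomal genes. Each is the 250 bases before the start in the RefSeq promoter table of GRCm38.p6, 5′ to 3′ on the gene's strand. Capitals mark CACGTG, the core of the sites of TFEB and its relatives, TGGAAA, the core of sites of the NFAT family, and GAGGAA, a core of sites of the myeloid factor PU.1, each on either strand.
Ctss, chr3:95526536-95526785, plus strand: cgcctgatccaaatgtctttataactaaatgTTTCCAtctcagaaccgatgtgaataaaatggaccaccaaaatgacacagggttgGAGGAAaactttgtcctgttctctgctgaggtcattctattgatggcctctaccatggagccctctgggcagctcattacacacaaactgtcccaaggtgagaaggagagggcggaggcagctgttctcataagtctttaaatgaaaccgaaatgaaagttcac
Ctsk, chr3:95498960-95499209, plus strand: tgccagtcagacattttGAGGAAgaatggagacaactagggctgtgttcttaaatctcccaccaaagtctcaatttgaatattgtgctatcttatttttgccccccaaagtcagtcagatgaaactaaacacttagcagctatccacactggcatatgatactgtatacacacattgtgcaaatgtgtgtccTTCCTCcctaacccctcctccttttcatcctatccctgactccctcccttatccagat
Ctsd, chr7:142387828-142388077, minus strand: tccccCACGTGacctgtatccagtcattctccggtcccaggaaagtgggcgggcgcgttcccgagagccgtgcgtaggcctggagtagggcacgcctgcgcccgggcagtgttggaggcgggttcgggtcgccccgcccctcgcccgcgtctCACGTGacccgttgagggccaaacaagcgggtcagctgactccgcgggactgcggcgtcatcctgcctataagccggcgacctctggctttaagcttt

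The table held windows for 8 of the 10 members, with 2 windows for Ctsa, and none for Ctsb and Ctsh. The Ctsd window has CACGTG 2 times, starting 245 and 98 bases before the start, and the windows of Ctsf and Ctsl and 1 of the 2 windows of Ctsa have it once each. The windows of Ctsc, Ctsk, Ctss and Ctsz do not have these letters. Among all 32851 windows of this length 6.02% held CACGTG. The letters TGGAAA stood in the windows of Ctss and Ctsl (18.6% of all windows) and GAGGAA in those of Ctss, Ctsk and Ctsc (23.3% of all windows). The Ctss window has TGGAAA on the minus strand, starting 219 bases before the start, and GAGGAA starting 164 bases before it. These motifs do not overlap each other in the 3 windows shown, and a match describes the letters only. Ctsk and Ctss are next to each other on chromosome 3 in the RefSeq gene table, with 0 protein-coding genes between them.

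The values are the deposited log2 RMA levels, in which the arrays have been brought to the same distribution. A change common to every gene would therefore not show in them. Levels of different probe sets are set against each other only in their place around the median gene. Apart from that, linear levels are summed within some marker lists. The targeted gene was looked at first. Nfat5 had log2 levels of 7.06, 6.95, 6.98 and 6.88 on the arrays labelled AdN5, against 7.06, 7.22, 7.11 and 7.25 on those labelled AdPl, a log2 fold change of -0.19 ± 0.078 (SE; exact two-sided permutation p = 0.0571, the smallest possible being 0.0286). Its measured transcript was thus not higher under the label of overexpression. Where its probes lie is not stated, so whether they can read a transcript from the virus is unknown, and the groups are called AdN5-labelled and AdPl-labelled below, with every direction drawn from those labels. Of 9 smooth muscle markers 7 lay above the median gene (3.73), Acta2 at 11.67 to 11.81 on AdN5-labelled and 12.02 to 12.06 on AdPl-labelled arrays, while the means of Des and Myocd lay below it. Across genes, 2 arrays correlated at 0.990 to 0.992 among the AdN5-labelled and at 0.992 to 0.993 among the AdPl-labelled ones. Between the groups the range was 0.989 to 0.992. On the first principal component (22.0% of the variance) the AdN5-labelled arrays lay from -19.9 to -7.49 and the AdPl-labelled arrays from 6.80 to 17.1. On the second principal component the AdN5-labelled arrays lay from -24.7 (replicate 4) to 19.5 (replicate 3), and the AdPl-labelled arrays from -14.2 (replicate 3) to 3.15 (replicate 2). All 10 cathepsins lay above the median gene in their mean over the arrays.

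Ctss, which encodes cathepsin S, rose in the AdN5-labelled cells, and the other 9 cathepsins did not pass the test. Cathepsin S keeps its activity at neutral pH, degrades elastin and trims the invariant chain of class II molecules in antigen-presenting cells. Its log2 levels were 7.52, 7.59, 7.68 and 7.61 on the AdN5-labelled arrays, against 7.08, 6.75, 7.17 and 6.95 on the AdPl-labelled arrays. Every AdN5-labelled array was above every AdPl-labelled array, and the AdPl-labelled arrays were the more scattered ones. The mean level was 7.60 ± 0.063 in AdN5-labelled and 6.99 ± 0.18 in AdPl-labelled cells (SD, n = 4 each), a log2 fold change of 0.61 ± 0.10 (SE). This is 1.53-fold, with a 95% interval from 1.31 to 1.79 (limma adjusted p = 0.0288 over all genes). In the same comparison 0.364% of all genes passed as higher, 0.413% as lower and 0.777% in either direction.

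The call of Ctss held when AdPl replicate 3 was left out and was lost without any other single array. The adjusted p in limma was 0.0384 without AdPl replicate 3 and between 0.0637 and 0.104 without any other single array. It was 0.103 without AdPl replicate 3 and AdN5 replicate 4 together, the arrays at the low end of the second principal component. With the replicate number as a block it was 0.115. The log2 fold change stayed between 0.53 and 0.68 in these fits.

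Ctsk, which encodes cathepsin K, a strong collagenase best known from osteoclasts and also elastolytic, had the lowest fold change of the family. Its log2 levels were 8.88, 8.91, 8.87 and 9.01 on the AdN5-labelled arrays, against 9.24, 9.19, 9.31 and 9.14 on the AdPl-labelled arrays. The groups did not overlap, and all AdN5-labelled arrays were the lower ones. The log2 fold change was -0.30 ± 0.074 (SE), to 0.811 of the AdPl-labelled level with a 95% interval from 0.723 to 0.911, and it did not pass (limma adjusted p = 0.129). It passed with a variance trend and robust estimation (adjusted p = 0.00234), and among genes above the median (0.0338). Groups that do not overlap were seen for 2 of the 10 cathepsins, Ctss and Ctsk, and for 8.78% of all genes, 4.22% on the higher and 4.56% on the lower side. An unadjusted p under 0.05 was reached by the same 2 members and by 12.5% of all genes.

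**Figure D1:**
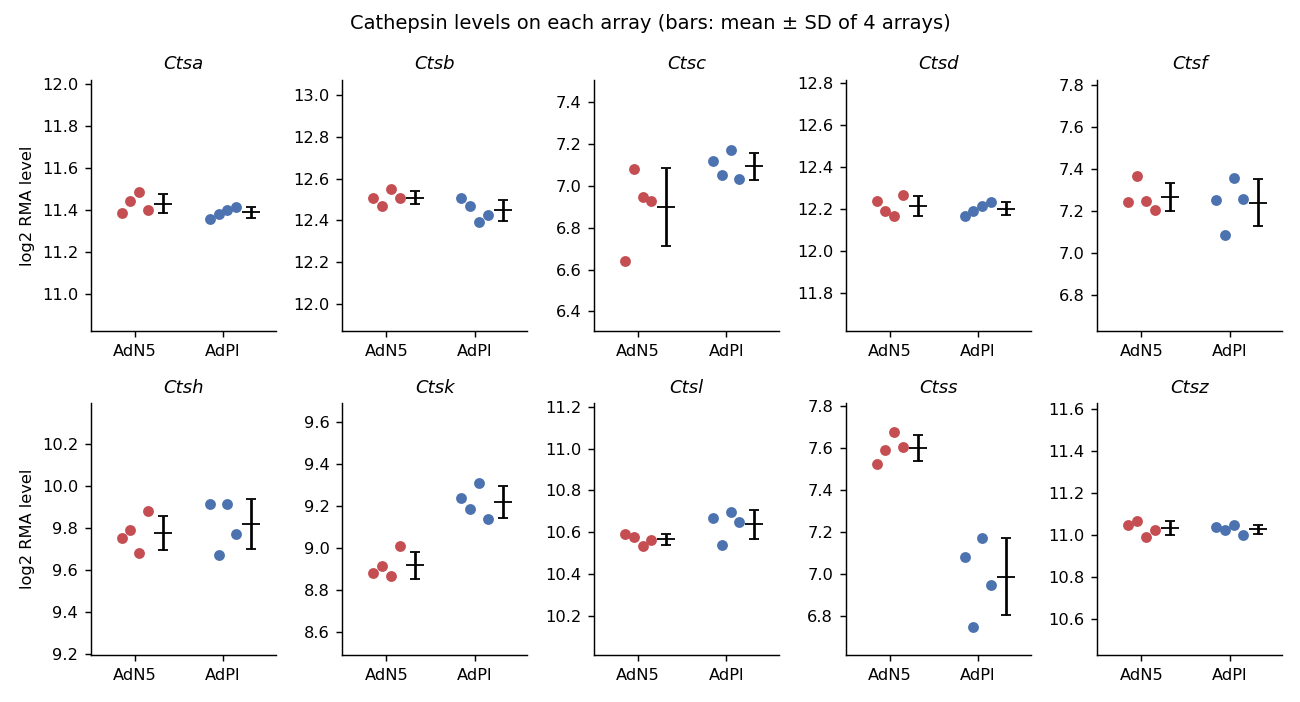
Log2 RMA level (vertical axis, each panel spanning the same range of log2 units) of the 10 cathepsins on the 4 AdN5-labelled (red) and 4 AdPl-labelled (blue) arrays, with the mean and SD beside the points. Ctss separates upward (7.52 to 7.68 against 6.75 to 7.17) and Ctsk downward (8.87 to 9.01 against 9.14 to 9.31), and the groups of the other members overlap.

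Among the remaining cysteine cathepsins, Ctsc, which encodes the dipeptidyl peptidase that activates granule serine proteases, had log2 levels of 6.64, 7.08, 6.95 and 6.93 on the AdN5-labelled arrays, against 7.12, 7.05, 7.17 and 7.03 on the AdPl-labelled arrays. AdN5 replicate 1 was the lowest, and the groups overlapped through AdN5 replicate 2. The log2 fold change was -0.20 ± 0.10 (SE, adjusted p = 0.478), and -0.11 without AdN5 replicate 1. Ctsl, an endopeptidase of lysosomes that also processes the invariant chain, lay at 10.53 to 10.59 in AdN5-labelled and 10.54 to 10.70 in AdPl-labelled cells (log2 fold change -0.071). Its 95% interval as a fold reached from 0.854 to 1.06. Ctsb, an endopeptidase and carboxypeptidase, lay at 12.47 to 12.55 in AdN5-labelled and 12.39 to 12.51 in AdPl-labelled cells (log2 fold change 0.060, fold interval 0.938 to 1.16). Ctsh, chiefly an aminopeptidase, had a log2 fold change of -0.041, with levels of 9.68 to 9.88 in AdN5-labelled and 9.67 to 9.92 in AdPl-labelled cells. Its fold interval was 0.851 to 1.11. For Ctsf, a cysteine protease with a long propeptide, the levels were 7.21 to 7.36 in AdN5-labelled and 7.09 to 7.36 in AdPl-labelled cells. The log2 fold change was 0.027 (fold interval 0.897 to 1.16), and it changed sign when AdN5 replicate 2 or AdPl replicate 2 was left out. Ctsz, a carboxypeptidase also called cathepsin X, was the closest to 0 of the family, at 0.0045 (fold interval 0.906 to 1.11), with levels of 10.99 to 11.06 in AdN5-labelled and 11.00 to 11.05 in AdPl-labelled cells.

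The members that use another catalytic residue did not pass either. Ctsd, the main aspartic protease of lysosomes, had log2 levels of 12.24, 12.19, 12.16 and 12.27 on the AdN5-labelled arrays, against 12.16, 12.19, 12.21 and 12.23 on the AdPl-labelled arrays. The groups overlapped almost wholly, and the log2 fold change was 0.014 (fold interval 0.910 to 1.12). Ctsa, a carboxypeptidase that shields beta-galactosidase and neuraminidase in the lysosome, had 11.38, 11.45, 11.49 and 11.40 on the AdN5-labelled arrays, against 11.36, 11.38, 11.40 and 11.42 on the AdPl-labelled arrays. Its log2 fold change was 0.041 (fold interval 0.927 to 1.14). The median log2 fold change of the 10 cathepsins was 0.0092, beside 0.0042 over all genes, with 6 members above 0 and 4 below.

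**Figure D2:**
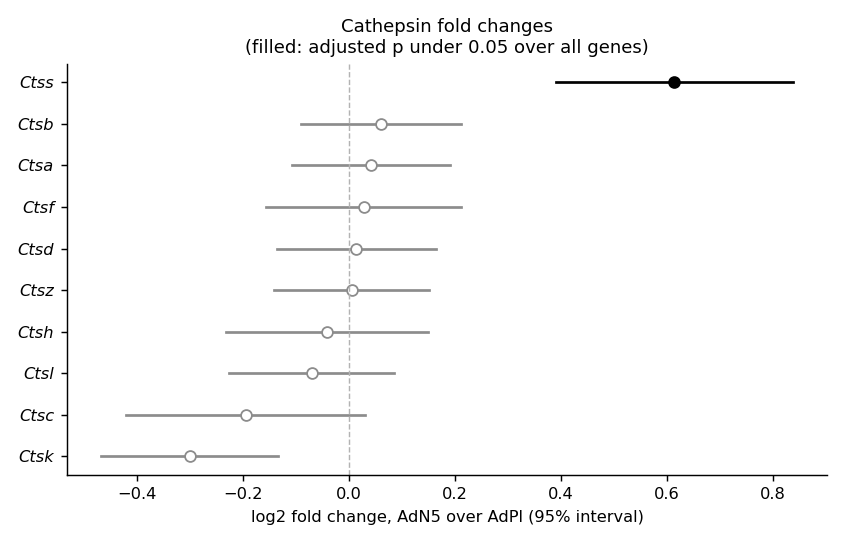
Log2 fold change of each cathepsin, AdN5-labelled over AdPl-labelled (horizontal axis), with its 95% interval from limma. The interval of Ctss lies above 0 and that of Ctsk below 0, and those of the other 8 members include 0.

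The cathepsins differed in how alike their spread between replicate arrays was. Deviations of each array from its group mean were correlated over the 8 arrays for the 45 pairs of members, with a median r of 0.25 and a range from -0.59 (Ctsb and Ctsf) to 0.83 (Ctsf and Ctsl), and 27 of the 45 were above 0. The deviations of Ctss correlated at 0.75 with those of Ctsf and of Ctsl and at 0.70 with those of Ctsh, at 0.12 to 0.52 with those of Ctsa, Ctsc, Ctsk and Ctsz, and at -0.16 with those of Ctsb and -0.14 with those of Ctsd. The arrays behind these values share 2 group means and the normalisation, and 8 points describe only these arrays.

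Cathepsins outside the 10 were mostly at the dim end. Of 12 others measured, 11 lay below the median gene, among them Ctsg of neutrophils and the placental genes Ctsj, Ctsm, Ctsq and Ctsr, so that the lack of a difference says little for them. Ctso, a widely expressed cysteine cathepsin, was the member above the median gene, with a log2 fold change of 0.010. The ends of this list were Cts8 (0.23) and Ctsw of cytotoxic lymphocytes (0.23), and Cts3 (-0.13) and Ctsj (-0.24). None of the 12 passed, and the median log2 fold change was 0.020.

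Inhibitors of cathepsins did not pass either, with 0 of 17 measured genes called in limma and a median log2 fold change of -0.014. An unadjusted p under 0.05 was reached by 2 of the 17, Cstb and the dim Cst6 (-0.29), beside 12.5% of all genes. Cstb, the intracellular inhibitor stefin B, had log2 levels of 8.43, 8.35, 8.40 and 8.27 on the AdN5-labelled arrays, against 8.05, 8.13, 8.19 and 7.93 on the AdPl-labelled arrays. Every AdN5-labelled array was the higher one, and the log2 fold change was 0.29 ± 0.082 (SE, adjusted p = 0.178), which passed with robust estimation and a variance trend. Cst3, the secreted inhibitor cystatin C, lay at 9.39 to 9.51 in AdN5-labelled and 9.56 to 9.64 in AdPl-labelled cells, a log2 fold change of -0.14 (adjusted p = 0.450). Its groups did not overlap either, which makes 2 of the 17 inhibitors without overlap, beside 8.78% of all genes. The other ends of the list were Cst13 (0.16), Stfa1 (-0.31) and Ctla2b (-0.39), of which Cst13 and Stfa1 were dim.

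Genes that process cathepsins, carry them or acidify their compartment did not pass. Over all genes 0.777% passed and 12.5% had an unadjusted p under 0.05. Of 10 processing and partner genes, 0 passed in limma (1 at an unadjusted p under 0.05), with a median of 0.094. The groups did not overlap for 2 of the 10, Psap and Lgmn, with the AdN5-labelled arrays higher, as for 4.22% of all genes. Psap, the precursor of the saposins, was at 0.12, Lgmn, the asparaginyl endopeptidase that trims several cathepsins, at 0.069, Prcp at 0.18, Ppt1 at 0.15, Scpep1 at -0.026 and Neu1, the neuraminidase bound by Ctsa, at -0.095. Of 13 genes of sorting to the lysosome, 0 passed (1 at an unadjusted p under 0.05), with a median of -0.065. Gga2 (0.24) and Vps29 (0.12), an adaptor and a retromer subunit, were at the upper end, and Nagpa (-0.10), which uncovers the mannose 6-phosphate tag, and Gga1 (-0.15) at the lower. Of 15 measured genes of lysosomal acidification, 0 passed (1 at an unadjusted p under 0.05), with a median of 0.012. Atp6v0d2, a proton pump subunit known from osteoclasts and macrophages, had log2 levels of 5.58, 5.14, 5.56 and 5.25 on the AdN5-labelled arrays, against 4.67, 4.16, 4.95 and 5.01 on the AdPl-labelled arrays, without overlap. Its log2 fold change of 0.69 ± 0.19 (SE) did not pass (adjusted p = 0.168). The chloride exchanger Clcn7 was at 0.17, and the pump subunits Atp6v0d1 and Atp6v1h at -0.080 and -0.16.

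The transcription factors of lysosomal and cathepsin genes held 0 calls among 9 in limma. An unadjusted p under 0.05 was reached by 3 of the 9, beside 12.5% of all genes. Tfeb, the best known activator of lysosomal genes, lay at 3.22 to 3.40 on AdN5-labelled and 3.57 to 3.83 on AdPl-labelled arrays, a log2 fold change of -0.37 ± 0.082 (SE, adjusted p = 0.0918). The groups did not overlap, but its mean was below the median gene, a range in which RMA compresses differences. Its relative Tfec was at -0.59, with AdN5 replicate 4 lowest at 3.56. Spi1, which encodes PU.1, was at 0.34 (adjusted p = 0.309), and Irf8, another myeloid factor, at 0.25.

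Among the substrates, genes of matrix proteins and the invariant chain, 0 of 13 passed in limma, with a median of -0.038. An unadjusted p under 0.05 was reached by 3 of the 13, beside 12.5% of all genes. The laminin gene Lamb1 was at 0.22, Col4a1 at 0.11, the collagen gene Col3a1 at -0.18 and the elastin gene Eln at -0.24. Cd74, the invariant chain that cathepsin S trims, was near the median gene in both groups, at 3.44 to 4.01 in AdN5-labelled and 3.52 to 4.09 in AdPl-labelled cells (log2 fold change -0.017).

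**Figure D3:**
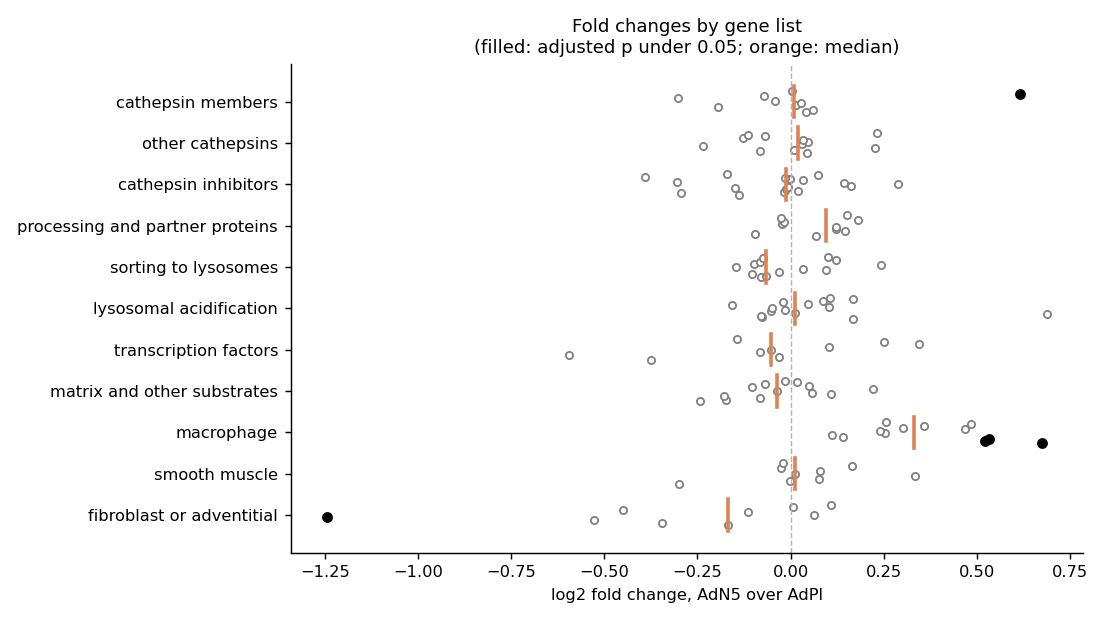
Log2 fold change, AdN5-labelled over AdPl-labelled (horizontal axis), of each measured gene in the cathepsin lists and in 3 marker lists, with the list median in orange. Ctss (0.61) is the highest of the cathepsins. The medians of the cathepsin lists run from -0.065 (sorting) to 0.094 (processing and partner genes), against 0.33 for the macrophage markers.

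Of 12 measured markers of macrophages, a cell type known for high Ctss, 3 rose in the same arrays, against 0.364% of all genes, and 9 did not pass. All 12 had a log2 fold change above 0, with a median of 0.33. The groups did not overlap for 7 of them, all with the AdN5-labelled arrays higher, as for 4.22% of all genes. The summed linear level of the 12 was 1629 to 1868 on the AdN5-labelled arrays, against 1200 to 1347 on the AdPl-labelled arrays. Most of this sum came from Cd68, Adgre1 and Laptm5, the 3 that passed. Adgre1, an adhesion receptor of macrophages, rose by 0.68 ± 0.083 (SE, limma adjusted p = 0.00884), Laptm5, a lysosomal membrane protein of blood cells, by 0.53 (0.0284) and Cd68, a lysosomal glycoprotein of macrophages, by 0.52 (0.0334). Csf1r (0.14) and Cd14 (0.11) were the lowest. No macrophage marker was listed at 0, and Ptprc, the pan-leukocyte antigen, was the dim one, at 3.19 to 3.95 in AdN5-labelled and 2.92 to 3.60 in AdPl-labelled cells. The part of macrophages in the level of Ctss was not tested, and in bulk RNA more cells of a type and more RNA per cell cannot be told apart. Without AdPl replicate 3 and AdN5 replicate 4 the macrophage list held 0 calls, and 0 with the replicate number as a block. With any single array left out it held 1 or 2. Adgre1 was called in each of these single-array fits, Laptm5 only without AdPl replicate 4, and Cd68 in none. The call beside Adgre1 without AdPl replicate 3 was C1qb.

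**Figure D4:**
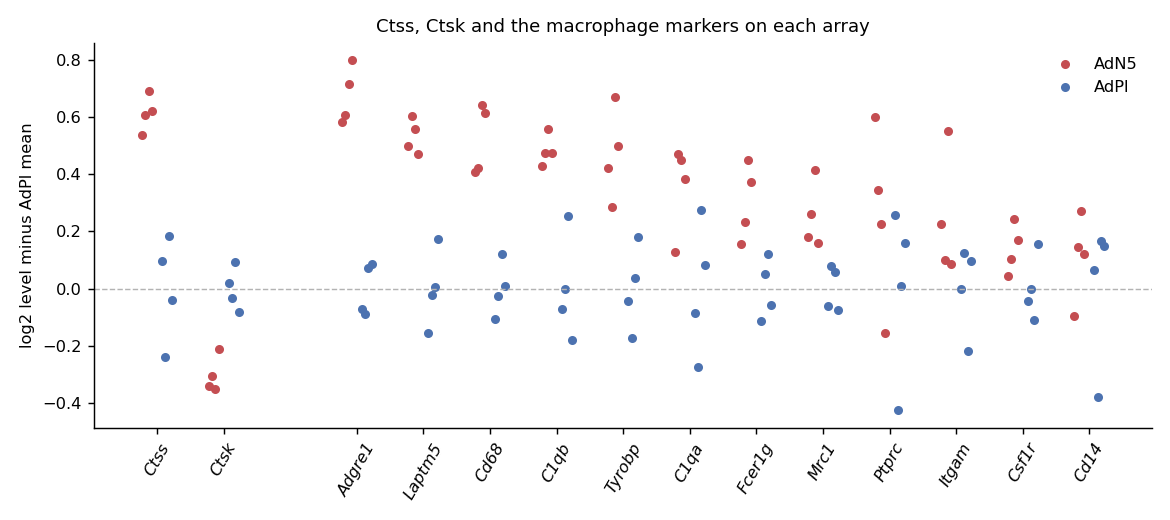
Log2 level minus the mean of the AdPl-labelled arrays (vertical axis) of Ctss, Ctsk and the 12 macrophage markers on each AdN5-labelled (red) and AdPl-labelled (blue) array. Ctss (0.61) lies between Adgre1 (0.68), the highest marker, and Laptm5 (0.53). The 12 markers reach down to Cd14 (0.11) with a median of 0.33, and Ctsk (-0.30) lies on the other side of 0.

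Ctsk was set beside the markers of osteoclasts and of fibroblasts, which are known to express it. Of 6 osteoclast markers 0 passed (1 at an unadjusted p under 0.05), 4 were below the median gene, and the median log2 fold change was 0.082. Their summed linear level was 73.9 to 89.8 on the AdN5-labelled arrays, against 74.6 to 81.4 on the AdPl-labelled arrays. Tnfrsf11a, the receptor of the osteoclast cytokine RANKL, was at 0.20, Dcstamp at 0.17, Calcr at -0.12 and Oscar at -0.38. Oscar, a dim gene, was the 1 at an unadjusted p under 0.05. Its groups did not overlap, at 3.07 to 3.30 on AdN5-labelled and 3.42 to 3.78 on AdPl-labelled arrays. Of 9 measured fibroblast or adventitial markers, Ly6c1 fell by 1.24 on the log2 scale (limma adjusted p = 0.0468) and 8 did not pass. The median of the list was -0.17, and 0.413% of all genes passed as lower. An unadjusted p under 0.05 was reached by 4 of the 9, Ly6c1, Cd34, Lum (-0.45) and Dpt (-0.35), beside 12.5% of all genes. The groups of these 4 did not overlap, with the AdN5-labelled arrays lower, as for 4.56% of all genes, for Ctsk and for Oscar. Ly6c1 was dim, and its call held without AdN5 replicate 1 but not without any other single array. The summed linear level of all 9 markers was 805 to 884 on the AdN5-labelled arrays, against 902 to 1035 on the AdPl-labelled arrays. Pdgfra gave most of this sum, and its own groups overlapped (log2 fold change -0.17, not passed). Cd34 was at -0.53, Clec3b at 0.061 and Col15a1 at 0.11. The part of either cell type in the level of Ctsk was not tested.

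**Figure D5:**
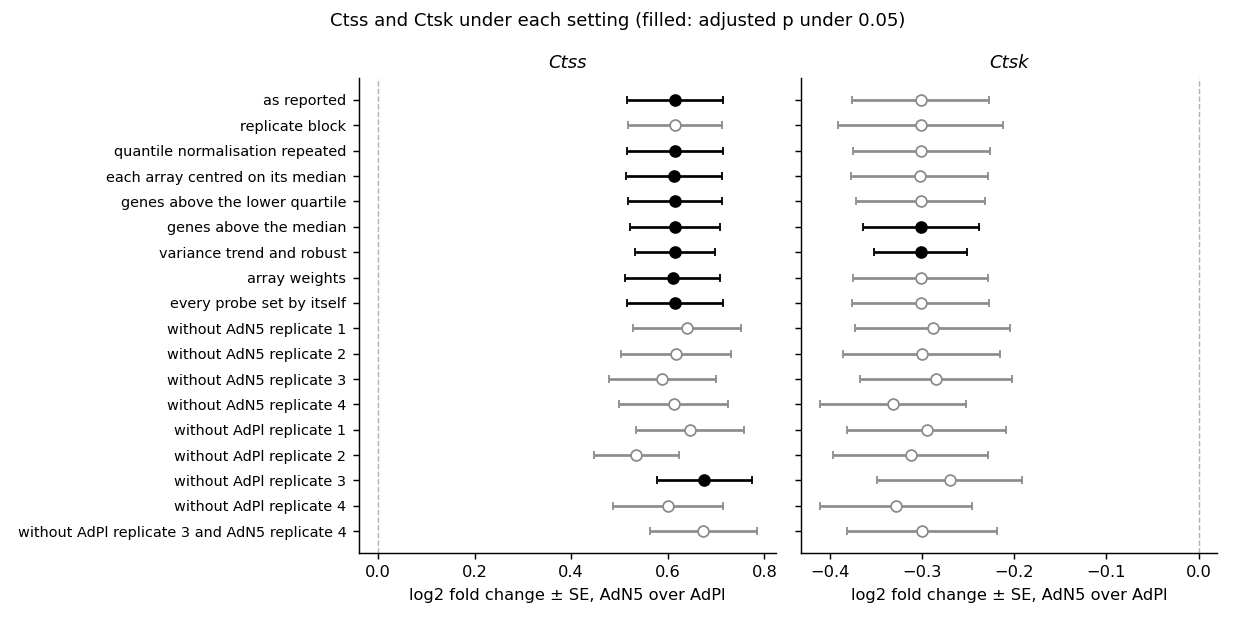
Log2 fold change with its standard error, AdN5-labelled over AdPl-labelled (horizontal axes), of Ctss and Ctsk under each setting, with filled points where the adjusted p was under 0.05. Ctss stays between 0.53 and 0.68 and Ctsk between -0.33 and -0.27, while the calls come and go with the setting.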

How the data were processed

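The authors deposited log2 expression values. These are RMA values per the submitters' processing notes, without a version. The method corrects background, quantile normalises arrays and summarises probes per probe set. The genome build is not given in the sources used here. The table held 25428 probe sets, of which 24705 had 1 gene symbol in the platform annotation and 723 stay unnamed. The brightest probe set was kept for the symbol with several, which left 24704 genes, without a filter.

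AdN5 was compared with AdPl by limma 3.58.1 in R 4.3.3 (lmFit, eBayes, two-sided, 4 arrays each, no covariate). Calls needed an adjusted p under 0.05 (Benjamini-Hochberg, across all genes). The code was tested on simulated data. The labels do not say whether replicates were separate cultures, so p-values measure only a spread between samples that may be technical, and the number of arrays limits precision. The labels do not say whether equal replicate numbers mark paired samples, so the main fit used no block.

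The members and lists were chosen with earlier results of these data known. Named were Nfat5, all cathepsins, and the called genes and the 2 genes at either end of each list. Others, such as Cst3, Cst6, Psap, Lgmn, Ctso, Cd74, Cald1, C1qb, Lum and Dpt, were chosen after their values were seen. Python 3.11.15 and matplotlib 3.10.9 drew the figures. Alternatives covered the replicate block, normalisation, dim-gene filters, variance model, array weights, probe sets, thresholds and arrays left out.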

Additional observations from a re-analysis of the deposited data

How the results depend on the processing

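The count of called cathepsins, 1 as reported, was 0 with the replicate block, 2 (Ctss higher, Ctsk lower) with robust estimation and a variance trend and among genes above the median, 0 at an adjusted p under 0.01, 0 without AdPl replicate 3 and AdN5 replicate 4 (chosen after seeing the data), and 0 to 1 with single arrays left out. The log2 fold change of Ctss was 0.61 with the replicate block (adjusted p = 0.115), 0.67 without those 2 arrays and 0.53 to 0.68 without single arrays; that of Ctsk was -0.30 where it passed. Same-numbered arrays deviated from their group means with correlations of 0.055, 0.051, -0.079 and -0.047 over all genes. These values cannot decide whether such arrays share a culture, which the labels do not state. Without single arrays the log2 fold changes ranged from -0.0041 to 0.030 for Ctsd, -0.023 to 0.067 for Ctsf (0.088 without the 2 arrays) and -0.0065 to 0.018 for Ctsz, all uncalled; the other members kept their sign. Genes called among all, 192 as reported, were 14 with the replicate block, 497 above the median, 42 at an adjusted p under 0.01, 110 at 1.5-fold or more, 781 with a variance trend and robust estimation, 30 without the 2 arrays and 56 to 88 without single arrays. A variance trend and robust estimation gave 1 inhibitor (Cstb), 1 partner gene (Psap), 1 acidification gene (Atp6v0d2), 2 substrate genes (Col1a1 and Col3a1), 1 smooth muscle, 5 macrophage and 3 fibroblast markers. The macrophage and fibroblast lists held 0 calls each with the replicate block and 0 each without the 2 arrays, and 1 to 2 and 0 to 1 without single arrays. The left-out fits have fewer arrays, and these and the block fit have fewer degrees of freedom. The cause of the shifts was not tested in any of the fits.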

Other observations

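The markers of mast cells, neutrophils and lymphocytes lay mostly below the median gene, and those of endothelial and smooth muscle cells mostly above it. Over all genes 0.777% passed and 12.5% had an unadjusted p under 0.05. Of 6 mast cell or neutrophil markers, whose granule proteases Ctsc activates, all 6 were below the median gene and 0 passed in limma (2 at an unadjusted p under 0.05), with Cpa3 at -0.41, Mpo at -0.23, Fcer1a at 0.037 and Mcpt4 at 0.057. Of 6 markers of T or NK lymphocytes, 5 were below the median gene and 0 passed (0 at an unadjusted p under 0.05), with Cd4 at 0.39, Nkg7 at 0.30, Gzma at -0.0087 and Cd8a at -0.021. Of 8 endothelial markers 5 were above the median gene and 0 passed (2 at an unadjusted p under 0.05), with Cdh5 at 0.35, Pecam1 at 0.12, Tek at -0.22 and Egfl7 at -0.31. Among 9 smooth muscle markers, 7 of them above the median gene, Cnn1 was at 0.33, Lmod1 at 0.17, Myocd at -0.026 and Acta2 at -0.30, and 0 passed (2 at an unadjusted p under 0.05). Their median was 0.013. The groups did not overlap for 3 of them, Cnn1 and Cald1 higher and Acta2 lower, as for 8.78% of all genes. Their summed linear level, to which Acta2 gives most, was 5067 to 5532 on AdN5-labelled arrays, against 5941 to 6023 on AdPl-labelled arrays.

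The genes whose deviations from the group means were most like those of Ctss, among 12351 genes above the median and over 8 arrays, were Pgf (r = 0.98), Daxx (0.97), Mfap5 (0.97), Scamp2 (0.97) and Mad2l2 (0.96). Their log2 fold changes between the groups were 0.64 for Pgf (limma adjusted p = 0.0269), 0.00052 for Daxx, 0.018 for Mfap5, 0.041 for Scamp2 and 0.13 for Mad2l2. The highest of so many correlations over 8 arrays lie near 1 in any case.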
